A study of Rattus norvegicus with 10 samples.

Results

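Steroid receptors and the enzymes that make, activate and inactivate their ligands were followed in the liver of rats fed HMB (2-hydroxy-4-methoxybenzophenone, or oxybenzone, an ultraviolet filter of sunscreens). The set was a list of 9 genes, namely the receptors Esr1, Nr3c1 and Nr3c2 and the enzymes Srd5a1, Hsd17b2, Hsd17b6, Hsd11b1, Cyp17a1 and Hsd3b5. Members were found by matching the gene symbol of each array probe set, the group of short probes that gives 1 value per transcript. This gave 9 probe sets for 8 of the 9 genes, 2 of them for Nr3c1, among 31042 probe sets tested in all, which named 14217 genes. No probe set was named Srd5a1, the reductase that makes dihydrotestosterone from testosterone, so it has no value here.

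The animals were Harlan Sprague Dawley rats, 5 given HMB at 10000 ppm in NTP-2000 feed for 13 weeks and 5 controls on the same diet at 0 ppm. Each rat gave 1 liver sample, kept in RNAlater, and 1 array. The HMB replicate 1 rat carried an HMB title and an HMB chemical label but a dose label of 0 ppm, and was kept in the HMB group. The labels gave no age or sex. With 5 rats to a cage, each group may have filled a single cage, and effects of the cage and of HMB then cannot be told apart. The values are log2 signals after robust multi-array averaging (RMA), where a step of 1 is a doubling, and the number of arrays limited the precision.

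Steroid hormones act through nuclear receptors that bind DNA once the hormone is bound, and the liver both responds to them and clears them. Nr3c1 encodes the glucocorticoid receptor, which drives gluconeogenesis and amino acid breakdown in hepatocytes. Paired dehydrogenases and reductases set how much active hormone reaches a receptor inside a cell, and many of them differ between male and female rat liver. HMB has been studied for weak oestrogenic and anti-androgenic activity, and the comparison of HMB with control liver addresses whether transcripts of this system differed.

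None of the 9 member probe sets passed the test, a limma fit across all probe sets with a Benjamini-Hochberg adjusted p under 0.05, which called 1.7% of all probe sets, 0.705% higher and 0.995% lower in HMB. By the same fit, 2 of the 9 had an unadjusted p under 0.05, against 24.1% of all probe sets. Both belonged to corticosteroid receptors. Nr3c1 was 0.63 log2 units lower in HMB by 1 of its 2 probe sets, 1368222_at, with an adjusted p of 0.0501. Nr3c2, the mineralocorticoid receptor, was 0.37 lower (adjusted p = 0.0988). The other 7 had adjusted p values from 0.326 to 0.967. Of the 9 differences 7 were below 0, and 47.6% of all probe sets were. The median of the 9 was -0.10. Of 4 equal bins of mean signal, the upper 2 held 7 of the 9, and all probe sets in these bins had medians of -0.08 and -0.10, against 0.11 and 0.09 in the dimmer 2, so the members' median was near that of probe sets as bright. No member had groups without overlap, which 5.77% of all probe sets had.

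**Figure D1:**
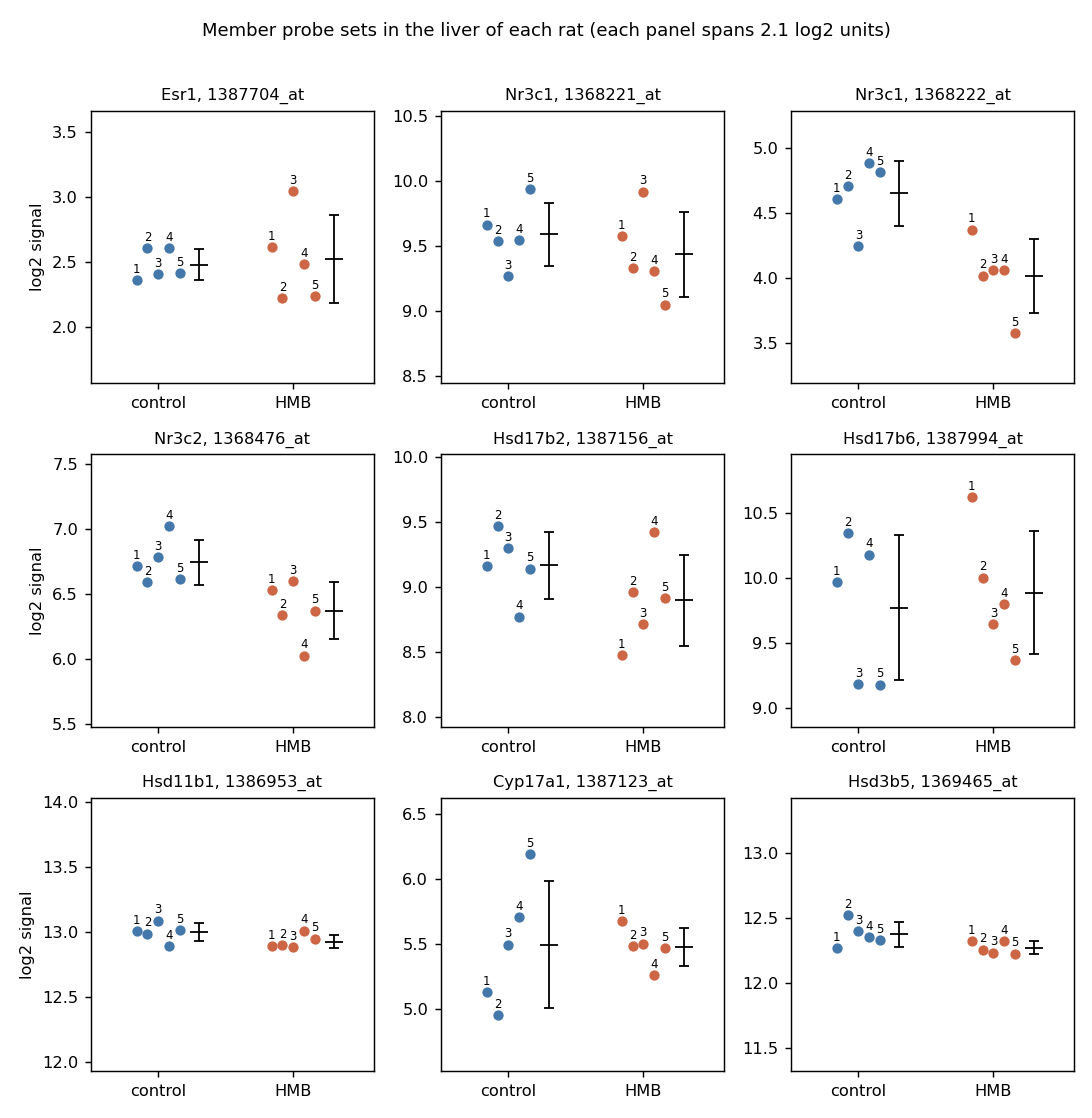
Log2 signal of the 9 member probe sets in each of the 5 control and 5 HMB rats; points are animals numbered by replicate, and bars give mean ± SD. In Nr3c1 1368222_at and in Nr3c2, 4 of 5 HMB rats lie below all controls, while the groups of the other members overlap more widely.

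Among the receptors, Nr3c1 was read by 2 probe sets that differed in brightness. By 1368222_at the controls measured 4.61, 4.71, 4.25, 4.88 and 4.82 (replicates 1 to 5) and the HMB rats 4.37, 4.02, 4.06, 4.06 and 3.58. The HMB rats lay below every control except for HMB 1, which was above control 3, and HMB 5 was the lowest of all. Of all probe sets 8.18% had at least 4 of 5 HMB arrays below all controls. Means were 4.65 ± 0.25 for controls (SD, n = 5) and 4.02 ± 0.29 for HMB rats, a difference of -0.63 ± 0.15 (SE, limma adjusted p = 0.0501), or 0.644-fold with a 95% interval from 0.516 to 0.804. An exact two-sided permutation test of this probe set alone gave p = 0.0159, unadjusted.

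The brighter Nr3c1 probe set, 1368221_at, did not follow to the same extent. Controls measured 9.67, 9.54, 9.27, 9.55 and 9.94 and HMB rats 9.58, 9.33, 9.92, 9.31 and 9.05, so that the groups overlapped nearly throughout. Its difference was -0.16 ± 0.16 (SE, n = 5 per group, limma adjusted p = 0.561), with a 95% interval from 0.71-fold to 1.14-fold. The per-array difference of the 2 probe sets was compared after their values had been seen. The dimmer minus the brighter averaged -4.94 ± 0.19 for controls (SD, n = 5) and -5.42 ± 0.27 for HMB. Every HMB rat lay below every control on this measure. The gap between groups was -0.48, given as a description with no test, since the comparison was chosen for its values. It does not say which probe set follows the receptor transcript.

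**Figure D2:**
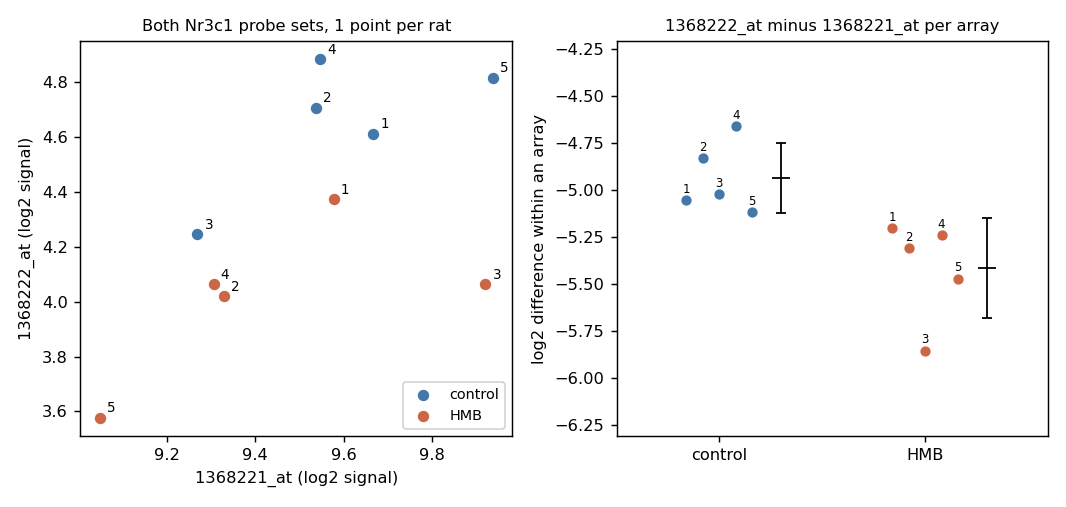
Left, log2 signal of both Nr3c1 probe sets in each rat; right, their difference within each array, with mean ± SD of each group (n = 5). At a similar 1368221_at value the HMB points lie lower than the control points, and on the right every HMB rat is below every control.

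Nr3c1 1368222_at lay close to the threshold. The probe set passed in 8 of 21 alternative settings, with adjusted p values from 0.0298 to 0.444. It passed without HMB 1 (-0.72, adjusted p = 0.0305), without control 1 (-0.64, adjusted p = 0.0447) and with HMB 1 counted as a control (-0.68, adjusted p = 0.0443). HMB 3, 4 and 5 stood apart by several array measures, among them the signal of poly-A transcripts added to the RNA, minus hybridisation controls, and the 3' minus 5' signal of GAPDH. In these 3 rats the first was -1.54, -1.78 and -1.47, and it was -1.92 and -1.96 in HMB 1 and 2 and between -2.19 and -1.90 in controls. The GAPDH measure was 1.97, 2.09 and 1.90 in HMB 3 to 5, 1.31 and 1.38 in HMB 1 and 2, and between 1.38 and 1.77 in controls. The same measure of beta-actin was 3.62, 3.96 and 3.58 in HMB 3 to 5, and 3.16 and 3.18 in HMB 1 and 2. Controls lay between 3.255 and 3.641, so by beta-actin HMB 3 and HMB 5 were within the control range. The SD of all log2 values was 2.377 to 2.385 in HMB 3 to 5, 2.426 and 2.431 in HMB 1 and 2, and 2.434 to 2.495 in controls, so every HMB array had a smaller SD than every control. With the poly-A measure as a covariate the Nr3c1 1368222_at difference was -0.36 (adjusted p = 0.444), and without HMB 3 to 5 it was -0.46 (adjusted p = 0.428). After cyclic loess normalization it was -0.70 (adjusted p = 0.0578). Probe sets in the same bin of mean signal as Nr3c1 1368222_at had a median difference of 0.11.

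The start region of Nr3c1 is shown as the regulatory sequence of the member with the largest difference. RefSeq gives it 2 windows of 300 bases, each from 250 before to 50 after an annotated start, on the minus strand of assembly GRCr8, at chr18:31614170-31614469 (outer) and chr18:31613390-31613689 (inner). They are written 5′ to 3′ with GC boxes, the letters GGGCGG on either strand, in capitals.
Nr3c1 outer start: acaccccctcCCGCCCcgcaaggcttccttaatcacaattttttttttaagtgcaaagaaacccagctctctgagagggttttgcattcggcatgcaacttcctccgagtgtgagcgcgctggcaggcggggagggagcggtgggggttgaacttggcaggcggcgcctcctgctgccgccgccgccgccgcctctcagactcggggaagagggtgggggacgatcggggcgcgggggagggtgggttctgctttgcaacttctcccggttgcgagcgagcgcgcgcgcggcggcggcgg
Nr3c1 inner start: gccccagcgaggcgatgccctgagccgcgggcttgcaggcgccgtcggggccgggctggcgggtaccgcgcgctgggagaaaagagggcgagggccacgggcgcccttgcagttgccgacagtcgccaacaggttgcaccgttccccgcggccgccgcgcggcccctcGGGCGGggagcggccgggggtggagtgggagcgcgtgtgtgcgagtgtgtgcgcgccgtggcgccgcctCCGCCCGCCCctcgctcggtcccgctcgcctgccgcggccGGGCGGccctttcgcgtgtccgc
The outer window held 1 GC box and the inner window 4, of which 2 overlap, and 33.1% of 33469 rat promoter windows held at least 1. Base composition differed as well, with 66% G or C in the outer and 79% in the inner window. Neither window held TGTTCT on either strand, the half-site of the glucocorticoid response element, which 20.7% of all windows held. The arrays do not tell which start was used.

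Nr3c2 encodes the mineralocorticoid receptor, the partner of Nr3c1 that binds aldosterone and corticosterone. Controls measured 6.71, 6.59, 6.78, 7.02 and 6.61 and HMB rats 6.53, 6.34, 6.59, 6.02 and 6.37. HMB 3, at 6.595, lay just above control 2, at 6.586, and the other 4 HMB rats lay below all controls. The mean went from 6.74 ± 0.17 (SD, n = 5) to 6.37 ± 0.22, a difference of -0.37 ± 0.12 (SE, limma adjusted p = 0.0988), or 0.773-fold with a 95% interval from 0.648 to 0.922. The exact two-sided permutation p of this probe set alone was 0.0159, unadjusted. It passed in none of 23 alternative settings (adjusted p from 0.0741 to 0.463), and its difference ran from -0.45 to -0.24, the latter after quantile normalization.

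Esr1, the oestrogen receptor alpha, gave a dim signal, in the lowest of those 4 bins. Controls measured 2.36, 2.61, 2.41, 2.60 and 2.42 and HMB rats 2.61, 2.22, 3.05, 2.49 and 2.24. HMB values lay on both sides of the control range, 2 above and 2 below it. The difference was 0.04 ± 0.14 (SE, n = 5 per group, limma adjusted p = 0.878), with a 95% interval from 0.833-fold to 1.27-fold, and it changed sign in 6 of 21 settings, among them cyclic loess (-0.05). No detection calls were used here, so a signal of this size cannot be told apart from background.

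**Figure D3:**
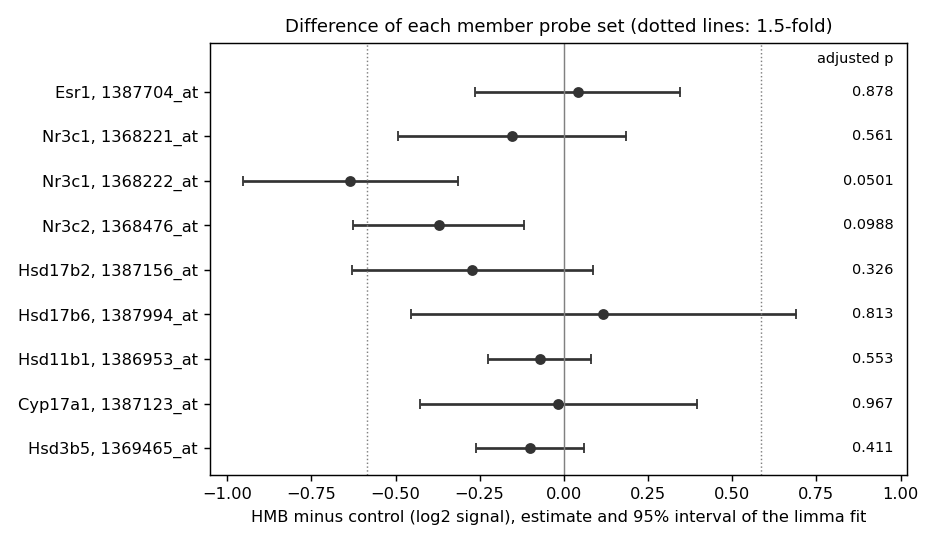
HMB minus control difference in log2 signal for each member probe set, with the 95% interval of the limma fit (n = 5 per group), the adjusted p at the right and dotted lines at 1.5-fold. The intervals of Nr3c1 1368222_at and Nr3c2 lie below 0, and those of the other 7 span it.

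Among the enzymes, Hsd11b1, which regenerates active glucocorticoid from its inert keto form in liver, was the steadiest. Controls measured 13.00, 12.99, 13.09, 12.89 and 13.02 and HMB rats 12.89, 12.90, 12.88, 13.01 and 12.95. The difference was -0.07 ± 0.07 (limma adjusted p = 0.553, SE, n = 5 per group), and its 95% interval ran from 0.856-fold to 1.06-fold. The spread within groups was smaller than that of Hsd11b1 in only 1.75% of all probe sets. Its cofactor partner H6pd, which supplies NADPH inside the endoplasmic reticulum, averaged 9.50 ± 0.15 in controls (SD, n = 5) and 9.88 ± 0.20 after HMB, and 4 of 5 HMB rats were above all controls (0.38 ± 0.11, SE, limma adjusted p = 0.0788).

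Hsd3b5, of the family that oxidises or reduces steroids at position 3, was about as steady. Controls measured 12.27, 12.52, 12.40, 12.35 and 12.33 and HMB rats 12.32, 12.26, 12.23, 12.32 and 12.23. Of the HMB rats 3 lay below all controls and the other 2 within their range. The difference was -0.10 ± 0.07 (SE, n = 5 per group, limma adjusted p = 0.411), with a 95% interval from 0.835-fold to 1.04-fold. The exact two-sided permutation p of Hsd3b5 alone was 0.0397, unadjusted, against an unadjusted limma p of 0.194. Its spread within groups was larger than in only 3.62% of all probe sets, and limma's moderated variance draws such small spreads upward. Near-identical family members can share probes, and a probe set named for Hsd3b1, Hsd3b2 and Hsd3b3 at once was not used.

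Hsd17b2, which oxidises oestradiol and testosterone to weaker ketosteroids, measured 9.16, 9.47, 9.30, 8.77 and 9.14 in controls and 8.48, 8.96, 8.72, 9.42 and 8.92 in HMB rats. HMB 1 and HMB 3 lay below all controls, while HMB 4 lay above all but control 2. The difference was -0.27 ± 0.17 (SE, n = 5 per group, limma adjusted p = 0.326), with a 95% interval from 0.646-fold to 1.06-fold. With HMB 1 counted as a control the Hsd17b2 difference was -0.05 and without HMB 3 to 5 it was -0.45, over a range of adjusted p from 0.175 to 0.890.

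Hsd17b6, an oxidative dehydrogenase that can return androstanediol to dihydrotestosterone, varied most from rat to rat. Controls measured 9.97, 10.35, 9.18, 10.18 and 9.18 and HMB rats 10.62, 10.003, 9.65, 9.80 and 9.37. Controls 3 and 5 were the lowest of all 10 rats and HMB 1 the highest. The difference was 0.12 ± 0.26 (SE, n = 5 per group, limma adjusted p = 0.813), with a 95% interval from 0.73-fold to 1.61-fold, so that a change of 1.5-fold upward lies within it. Its spread within groups exceeded that of 99.1% of all probe sets. The Hsd17b6 difference was 0.66 with the poly-A covariate (adjusted p = 0.422) and 0.54 without HMB 3 to 5 (adjusted p = 0.605). Its sign turned without HMB 1 (-0.07) and with HMB 1 counted as a control (-0.21).

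Cyp17a1, the hydroxylase and lyase that opens the way from progestogens to androgens, measured 5.13, 4.96, 5.50, 5.71 and 6.20 in controls and 5.68, 5.49, 5.51, 5.26 and 5.47 in HMB rats. All HMB values lay within the control range, and the SD was 0.49 in controls and 0.15 in HMB (n = 5 each). The difference was -0.02 ± 0.19 (SE, limma adjusted p = 0.967), with a 95% interval from 0.743-fold to 1.32-fold. Its sign changed in 6 of 23 settings, among them without control 5, the highest control (0.16).

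The members were also set against each other across the 10 arrays, as deviations from the group means. Over 36 pairs of probe sets the median Pearson r was 0.13, with 4 pairs above 0.5 and 5 below -0.5. Hsd17b2 and Hsd11b1 ran together (r = 0.75), and Hsd17b2 and Nr3c2 ran opposite (r = -0.90). The 2 Nr3c1 probe sets had r = 0.66 within groups. All these values share arrays and their scaling, and with 10 arrays they are a description.

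Genes whose pattern over the 10 arrays was most like the corticosteroid receptors were sought among 8314 named probe sets with a mean signal of at least 6, so high values were bound to occur. These 2 receptor probe sets had the smallest p of the members, and r over all 10 arrays takes in the group difference. Genes that differ between groups were therefore favoured. For Nr3c1 1368222_at the genes were Zfp746 (r = 0.96), Onecut1, a liver transcription factor (r = 0.96), and Fmc1 (r = 0.95). As deviations from the group means r was 0.93, 0.89 and 0.87 in this order. Onecut1 1371034_at passed the test, at -1.99 (limma adjusted p = 0.0479). For Nr3c2 they were Rnf111 and Mapk1ip1l (r = 0.94 each) and Coq10b (r = 0.93), and none of the 3 passed. Their r as deviations from the group means was 0.87, 0.88 and 0.85.

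Around the members, 9 related lists held 195 probe sets of 135 genes besides the members. Of these probe sets 5 passed, 1 higher and 4 lower in HMB, or 2.56%, against 1.7% of all probe sets. The lists were chosen with earlier results of these data known, so their shares here and below are a description only. The median difference of the related probe sets was 0.00. Receptor chaperones, which hold steroid receptors ready to bind hormone, had 14 probe sets, of which 1 fell, 0 rose and 13 did not pass, with 13 below 0 (47.6% of all probe sets were) and a median of -0.17, against -0.08 and -0.10 in the brighter 2 bins of all probe sets. Hsp90ab1, the constitutive cytosolic HSP90, fell by 0.49 ± 0.10 by 1375335_at (SE, limma adjusted p = 0.038, n = 5 per group). Controls measured 10.90, 10.84, 10.74, 10.57 and 10.81 and HMB rats 10.55, 10.37, 10.13, 10.21 and 10.17, without overlap. Groups did not overlap in 2 of the 14 chaperone probe sets, against 5.77% of all probe sets. By its other probe set, 1375336_at, Hsp90ab1 differed by -0.17 (adjusted p = 0.438). Ppid, an immunophilin of receptor complexes, was at -0.28 (adjusted p = 0.0976) and Bag1, a cochaperone, at -0.16 (adjusted p = 0.186).

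Receptor coregulators had 26 probe sets, of which 2 fell, 0 rose and 24 did not pass, and 0.995% of all probe sets were called lower. Of the 26, 21 lay below 0, against 47.6% of all probe sets, and the median was -0.10. Their mean signals ran from 2.61 to 9.76 and so spanned the 4 bins. Over all probe sets the bins had medians of -0.10 and -0.08 (brighter 2) and 0.11 and 0.09 (dimmer 2). Groups did not overlap in 3 of the 26, against 5.77% of all probe sets. Med1, a Mediator subunit that contacts nuclear receptors, fell by 0.58 ± 0.09 by 1390506_at (SE, limma adjusted p = 0.0288, n = 5 per group), from 6.69 ± 0.14 (SD) to 6.12 ± 0.14. Its controls measured 6.47, 6.71, 6.80, 6.67 and 6.82 and HMB rats 6.32, 6.10, 5.96, 6.16 and 6.05, without overlap. Its other 2 probe sets differed by -0.24 (adjusted p = 0.128) and -0.01 (adjusted p = 0.978). Crebbp, a histone acetyltransferase and coactivator, fell by 1.21 ± 0.24 (limma adjusted p = 0.0353) by 1385852_at. Its controls measured 5.52, 5.88, 5.56, 5.33 and 5.73 and HMB rats 5.14, 4.89, 3.61, 4.21 and 4.10, with HMB 3 to 5 the lowest. Without HMB 3 to 5 the Crebbp difference was -0.59 (adjusted p = 0.314) and with the poly-A covariate -0.61 (adjusted p = 0.342), over a range of adjusted p from 0.00707 to 0.342. The other 4 Crebbp probe sets differed by -0.37 (adjusted p = 0.0533), -0.14, -0.09 and -0.05, and none passed. Ncoa3, another coactivator, was at -0.39 (adjusted p = 0.097) and, by its other probe set, at -0.10 (adjusted p = 0.636).

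Targets of the glucocorticoid receptor in liver had 36 probe sets of 26 genes, none called by limma, with 5 at an unadjusted p under 0.05, all lower. Of all probe sets 24.1% had such a p and 11.4% had it in the lower direction. The 5 were near the lower share alone, and 0 of the 36 had such a p in the higher direction. Of the 36, 14 lay above 0 and 22 below, and the median was -0.02. Sgk1, a kinase induced by corticosteroids, was lower in every HMB rat than in any control. Controls measured 8.33, 8.48, 8.86, 10.39 and 9.33 and HMB rats 7.70, 7.87, 8.31, 7.51 and 7.62. The Sgk1 difference was -1.28 ± 0.32 (SE, n = 5 per group, limma adjusted p = 0.0587). Groups did not overlap in 1 of the 36, against 5.77% of all probe sets. Fgf21, a fasting hormone, was at -0.87 (adjusted p = 0.0788) and Cebpb, a liver transcription factor, at -0.39 (adjusted p = 0.129). Of 23 of these genes with a RefSeq promoter window 1 held TGTTCT on either strand. Their windows numbered 27, of which 1 held it, against 20.7% of all windows. The windows run from 250 bases before to 50 after a start, so sites farther away were not looked for.

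Oestrogen-responsive genes had 21 probe sets, of which 1 rose, 0 fell and 20 did not pass, with a median of 0.02. Of all probe sets 0.705% were called higher. Tff3, a secreted trefoil peptide, rose by 0.65 ± 0.10 (SE, limma adjusted p = 0.0288, n = 5 per group), with controls from 4.11 to 4.47 and HMB rats from 4.68 to 5.03. Socs2, a brake on growth hormone signalling, was at -0.89 (adjusted p = 0.145) and Prlr, the prolactin receptor, at 0.56 (adjusted p = 0.27) by 1 of 3 probe sets. The other Prlr probe sets were at 0.40 (adjusted p = 0.581) and -0.0022 (adjusted p = 0.996). Sex-dependent liver genes, a list that also holds Esr1, Hsd11b1 and Hsd3b5, had 24 probe sets with a median of 0.02. Of the 24, 1 fell, 0 rose and 23 did not pass, and 0.995% of all probe sets were called lower. The one that fell was Onecut1 1371034_at, with controls at 10.20, 10.07, 9.15, 10.32 and 10.37 and HMB rats at 9.32, 8.27, 8.69, 7.61 and 6.24. HMB 1 overlapped control 3, as in Nr3c1 1368222_at. The second Onecut1 probe set was at -1.91 (adjusted p = 0.0514). Cyp2c12, a steroid hydroxylase typical of female rat liver, was at -1.14 (adjusted p = 0.0939), and Bcl6, a repressor under growth hormone control, at 1.41 (adjusted p = 0.149). The Y-linked gene Eif2s3y measured between 8.63 and 9.17 on all 10 arrays, and the 4 Xist probe sets between 1.84 and 2.70. The 5 calls did not hold in all alternative settings. Hsp90ab1 passed in 10 of 22, Med1 in 13 of 22, Crebbp in 11 of 22, Tff3 in 15 of 23 and Onecut1 in 8 of 23, and none passed with the poly-A covariate or without HMB 3 to 5, where no probe set of the whole array passed. With the covariate the differences were -0.52 for Med1, 0.51 for Tff3, -0.29 for Hsp90ab1, -0.61 for Crebbp and -1.04 for Onecut1. Without HMB 3 to 5 they were -0.48, 0.46, -0.32, -0.59 and -1.23 in the same order.

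**Figure D4:**
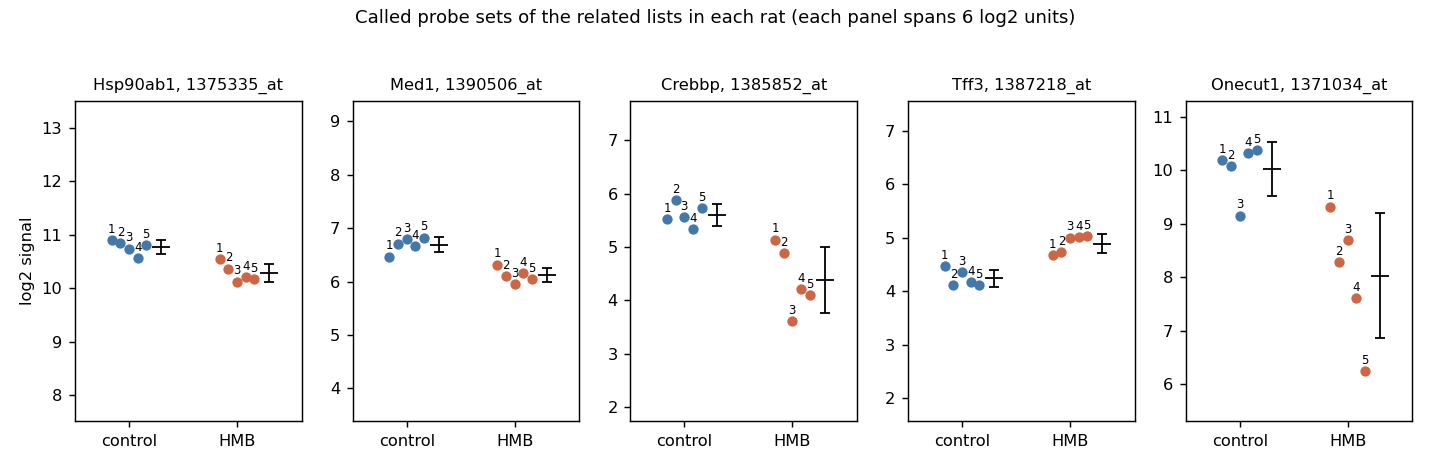
Log2 signal of the 5 called probe sets of the related lists in each control and HMB rat, with mean ± SD (n = 5). Hsp90ab1, Med1, Crebbp and Onecut1 are lower and Tff3 is higher in HMB, without overlap except for Onecut1.

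The lists of enzymes, carriers and other receptors had 0 calls by limma, and their counts at an unadjusted p under 0.05 are to be read against the 24.1% of all probe sets. Other steroid dehydrogenases and reductases had 28 probe sets, 8 of them at an unadjusted p under 0.05, and a median of 0.06. Akr1d1, the reductase that starts the breakdown of ketosteroids, was at 0.73 ± 0.19 (SE, n = 5 per group, limma adjusted p = 0.0674) by 1392384_s_at and at 0.03 (adjusted p = 0.816) by 1398310_at. Hsd17b7, which also serves cholesterol synthesis, was at -0.38 (adjusted p = 0.119) and, by its other probe set, at -0.26 (adjusted p = 0.3002). Steroidogenic and steroid-hydroxylating P450s and cholesterol delivery had 28 probe sets, 10 of them at an unadjusted p under 0.05, and a median of 0.05. Cyp46a1, a cholesterol hydroxylase, was at 0.34 (adjusted p = 0.0752), with all 5 HMB rats above all controls. Groups did not overlap in 2 of these 28, against 5.77% of all probe sets. The cholesterol carrier Stard4 was at -0.36 (adjusted p = 0.114). Its other probe sets were at -0.39 (adjusted p = 0.115) and -0.02 (adjusted p = 0.923). Conjugating enzymes and carriers had 21 probe sets, 5 of them at an unadjusted p under 0.05, and a median of 0.06. Shbg, the sex hormone carrier, was at 0.33 (adjusted p = 0.131), Ugt2b15, an androgen glucuronosyltransferase, at 0.29 (adjusted p = 0.133) and Sult2b1, a sterol sulfotransferase, at -0.33 by 1376248_at (adjusted p = 0.144). The other Sult2b1 probe set, 1393474_at, lay the opposite way at 0.20 (adjusted p = 0.184). Other steroid receptors and binding proteins had 17 probe sets, 3 of them at an unadjusted p under 0.05, and a median of 0.10, with Nenf at 0.43 (adjusted p = 0.0574), Esrrb at 0.39 (adjusted p = 0.0974) and Paqr8 at 0.24 (adjusted p = 0.14). The other 3 Paqr8 probe sets were at 0.12, 0.08 and 0.0037.

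**Figure D5:**
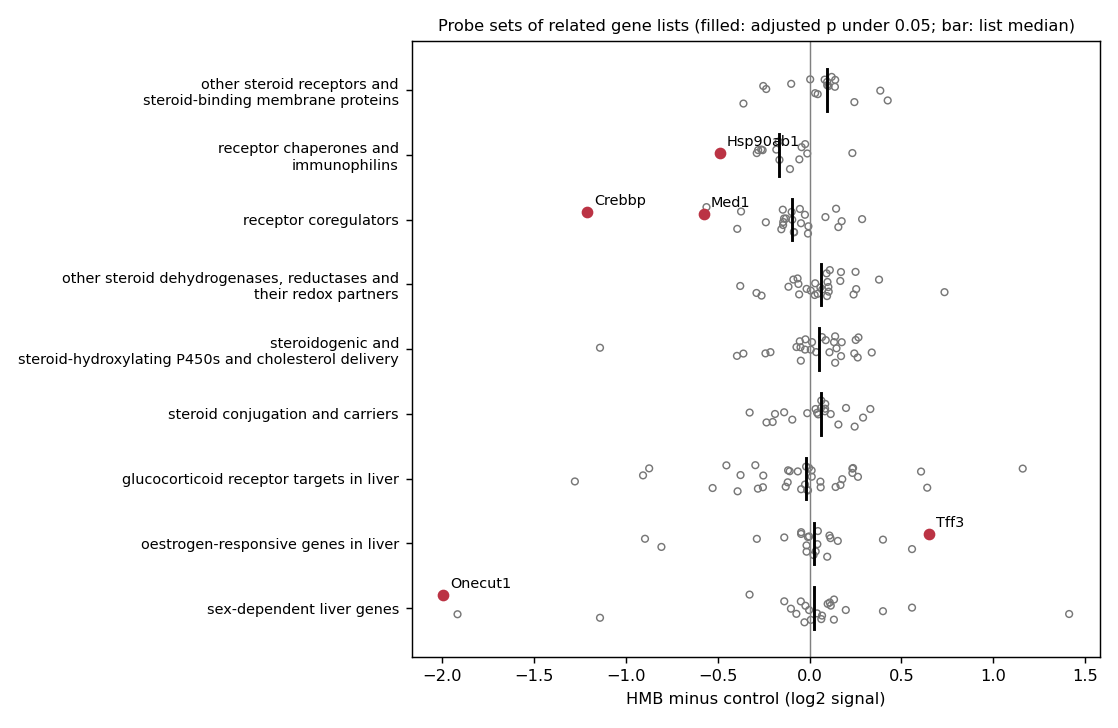
HMB minus control difference in log2 signal for every probe set of the 9 related lists, 1 point each, with a bar at each list's median; filled points passed the limma test. The 5 filled points are Hsp90ab1, Crebbp, Med1, Tff3 and Onecut1, and a gene on several lists appears on each.

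In whole liver, fewer cells of a type and less RNA per cell cannot be told apart. Markers of hepatocytes averaged 13.38 to 13.47 in controls and 13.29 to 13.46 in HMB. Markers of adrenal cortex and gonad, where most steroids are made, averaged 2.78 to 3.09 and 2.88 to 3.03. Of 61 probe sets in 9 marker lists limma called 0, with 11 at an unadjusted p under 0.05, against 24.1% of all probe sets. Of the 11, 10 were higher in HMB, namely 3 of stellate cells and fibroblasts, 3 of lymphocytes, 2 of adipose tissue, 1 of endothelial cells and 1 of adrenal cortex and gonad, and 1 of hepatocytes was lower. Of all probe sets 11.4% had such a p in the lower direction. In controls lymphocyte markers averaged 3.51 to 3.84 and adipose markers 3.63 to 4.14. At such dim signals all probe sets leaned upward, with medians of 0.11 and 0.09 in the dimmer 2 bins. The part of these marker differences in the results was not tested. Kupffer cell and macrophage markers ranged more widely in controls (6.55 to 8.17) than in HMB (7.12 to 7.87). Over all probe sets 528 passed, 219 higher and 309 lower, and after cyclic loess 125, 51 higher and 74 lower. With arrays set to the same median 674 passed, 176 higher and 498 lower.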

How the data were processed

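The deposited table holds log2 signals of 10 rat liver arrays, made by the authors with RMA of unstated version, as named in the submitters' processing notes. They were used as deposited. Of 31099 probe sets, 57 Affymetrix controls were left out of the tests. The platform annotation gave the gene names (20826 of 31042 with 1 symbol, 436 with several, left unnamed), and symbols were updated through the RefSeq table of GRCr8. Differences are HMB minus control from limma 3.58.1 in R 4.3.3 (lmFit, eBayes, 8 residual degrees of freedom, no covariate), with Benjamini-Hochberg adjustment over all probe sets, a threshold of 0.05 and no filter on low signals. Replicates follow deposition order. The step was tested on simulated data. Members and lists were chosen with earlier results of these data known. Every member probe set is named, and of each related list the called probe sets and the 3 genes with the smallest p; other probe sets of these genes are given beside them. Alternatives covered scaling, filters, the prior, array weights, probe set choice, RNA measures and left-out arrays. No 2 of the 45 pairs of arrays were identical (r from 0.987 to 0.995). P-values set each difference against the spread between these animals, with 1 array each, and do not cover differences between cages.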

Additional observations from a re-analysis of the deposited data

How the results depend on the processing

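No paired analysis was possible because the replicate numbers follow deposition order and pair no animals. The count of called member probe sets, 0 by limma with 2 at an unadjusted p under 0.05, was 1 with array weights, with arrays at the same median, with a trended robust prior, without the lowest 25% of mean levels, with HMB 1 counted as a control and without HMB 1 and 2, and ran from 0 to 1 when each array was left out in turn. That 1 was Nr3c1 1368222_at, at -0.75 without HMB 1 and 2 (adjusted p = 0.0298). The count of called related probe sets, 5, was 10 with HMB 1 counted as a control, 9 with array weights, 8 with arrays at the same median, 16 without HMB 1 and 2, 2 after cyclic loess or quantile normalization and 1 with 1 probe set per gene. It was 0 with the poly-A covariate (27 at an unadjusted p under 0.05) and 0 without HMB 3 to 5 (31), where 0 of all 31042 probe sets passed (smallest adjusted p 0.149 and 0.249), and ran from 0 to 10 when each array was left out. It was 0 by limma without control 2, 3, 4 or 5 or HMB 4 or 5 (40 to 44 at an unadjusted p under 0.05), where 0 or 1 of all probe sets passed, 1 without HMB 2, and 10 without control 1 or HMB 1. Over all probe sets 65 passed without HMB 2, 1653 without control 1, 997 without HMB 1 and 2094 without HMB 1 and 2. In all 10 arrays 528 passed, so the related count moved in the same direction as the whole array in these settings. The sizes of these moves did not always match. With HMB 1 counted as a control 532 of all probe sets passed, a small rise, beside the 10 related ones. Without HMB 3 the whole array had 243, while the related lists stayed at 5.

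Signs turned for 3 uncalled members. Esr1 was at -0.0492 after cyclic loess, -0.0528 after quantile normalization, -0.0758 with the poly-A covariate, -0.0628 without HMB 3 to 5, -0.0038 with HMB 1 counted as a control and from -0.0902 (without HMB 3) to 0.12 with 1 array left out. Cyp17a1 was at 0.0399 after cyclic loess, 0.0684 after quantile normalization, 0.0855 without HMB 3 to 5 and from -0.15 to 0.16 with 1 array left out. Hsd17b6 was at -0.21 with HMB 1 counted as a control, -0.17 without HMB 1 and 2, 0.66 with the poly-A covariate, 0.54 without HMB 3 to 5 and from -0.0672 (without HMB 1) to 0.26 with 1 array left out. The cause was not tested. Both Nr3c1 probe sets, Nr3c2, Hsd17b2, Hsd11b1 and Hsd3b5 kept their direction in the settings run. In the settings that leave out the lowest 50% of mean levels or keep 1 probe set per gene, Nr3c1 1368222_at was not tested, and Esr1 was in neither the 25% nor the 50% setting.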
